A study of Saccharomyces cerevisiae with 11 samples.

Results

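The methionine and sulfur assimilation genes of budding yeast (Saccharomyces cerevisiae) were examined as a set of 30 genes listed by name, out of 5656 genes with a probe set of their own on the arrays. A gene was read from a probe set annotated to that gene alone, and the 1 gene with several, SAM3, from the one with the highest mean time course signal. The strain set held 2 arrays of a paf1 deletion strain and 1 array of a ctr9 deletion strain, against 2 arrays of wild type, all from cultures in mid-log phase in YPD, a rich medium, with 4% glucose. The time course held 6 arrays of a strain in which PAF1 is under TetO2, a promoter that doxycycline represses, taken at 0 h without the drug and after 2, 4, 5, 6 and 8 h with it. Paf1 and Ctr9 are subunits of the Paf1 complex, which travels with RNA polymerase II, and the study asked which transcripts depend on it. The labels gave no genotypes beyond these, no medium for the time course and no statement that replicates were separate cultures. Deletion and strain background therefore cannot be told apart, and p-values measured the spread between arrays. The time course had no strain without the regulated promoter, so PAF1 shut-off cannot be told apart from the drug or from time in culture.

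Yeast makes its sulfur amino acids from sulfate, which is taken up, activated with ATP, reduced to sulfite and then to sulfide, and joined to a carbon chain to form homocysteine. Homocysteine is methylated to methionine, which gives S-adenosylmethionine, the main methyl donor of the cell, and it is exchanged with cysteine through transsulfuration. Most of these genes are activated by Met4, which is brought to promoters by the DNA-binding proteins Cbf1, Met31 and Met32 and is held in check by the ubiquitin ligase subunit Met30 when methionine or cysteine is plentiful. Sulfate activation consumes ATP and sulfite reduction consumes NADPH, which makes the pathway costly in a rich medium where methionine can be imported.

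The strain values were scores between -10 and 10 whose scale was not stated, and the time course values were linear signals. Across 6493 tested probe sets of 1 organism and array type the mean wild type score followed the 0 h signal (Spearman correlation 0.808). Among the 10% with the highest signals the correlation was -0.376, so higher signals tended to go with lower scores there. Differences are therefore given in score units and not read as folds. For abundant transcripts a lower score need not mean less transcript. The labels were checked on the targeted genes. PAF1 scored 1.00 and 0.47 in the paf1 deletion, against 7.27 and 8.08 in wild type, and CTR9 scored 0.00 in the ctr9 deletion, against 1.84 and 4.36 in wild type. PAF1 signal was 272 at 0 h and 119, 139, 165, 184 and 166 at 2, 4, 5, 6 and 8 h. It was thus lowest at 2 h and stood at 0.61 of the 0 h signal at 8 h. Among the controls without a target in yeast the scores ran from -2.08 to 1.93. That range also held the CTR9 score of wild type 1, so the check of the ctr9 label was weaker than that of the paf1 label. Actin, read at both ends of its transcript, gave a 5' over 3' signal ratio of 5.92% on the 4 h array, where the rest gave 68.6% to 78.6%. The spike-in controls read 4.34-fold the 0 h level at 4 h and 3.93-fold at 6 h, against 1.01 to 1.14 at 2, 5 and 8 h, while the median signal of all probe sets lay between 108 and 127.

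In the strain set 1 of the 29 genes tested passed in the paf1 deletion. MET3, the gene of ATP sulfurylase, which activates sulfate, fell by 3.15 score units (SE 0.62, 2 arrays against 2, limma adjusted p = 0.0395). Lower calls of this kind made up 0.585% of all 6493 probe sets tested, and higher calls, of which these genes had 0, made up 1.12%. In the ctr9 deletion 0 of 29 passed (0.0308% of all probe sets), and 0 of 29 differed between the paf1 and ctr9 deletions (0.0616%). At an unadjusted p under 0.05 limma gave 7 genes in the paf1 deletion, MET3, MET5, MET6, MET13, MET22, STR3 and MMP1, which is 24.1% of 29 against 14.8% of all probe sets. It gave 4 in the ctr9 deletion, MET3, MET6, MET22 and MMP1, against 9.64% of all, and 0 between the deletions, against 2.93% of all. The arrays measured RNA of whole cultures. Even where a lower score meant less transcript, fewer cells with it and less of it per cell cannot be told apart.

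Beyond MET3 the differences were mostly small and more often negative than positive. Of the 29, 21 were lower in the paf1 deletion than in wild type, with a median difference of -0.23, where 54.1% of all probe sets were lower and the median of all was -0.06. In the ctr9 deletion 17 were lower, with a median of -0.10, against 46.3% and a median of 0.05 for all probe sets. For 10 genes all 3 deletion arrays lay below both wild type arrays, 34.5% of the 29 against 17.2% of all probe sets, and these were MET3, MET5, MET6, MET8, MET10, MET13, MET22, SAM1, SAM3 and STR3. SAM3 is counted there on its chosen probe set, and not all of its other probe sets were free of overlap. For MET4 and MMP1 all 3 deletion arrays lay above both wild type arrays, 6.90% of the genes against 15.8% of all probe sets. The ctr9 and paf1 deletion differences share their wild type arrays, so the values of both are given side by side and their likeness is not a result.

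**Figure D1:**
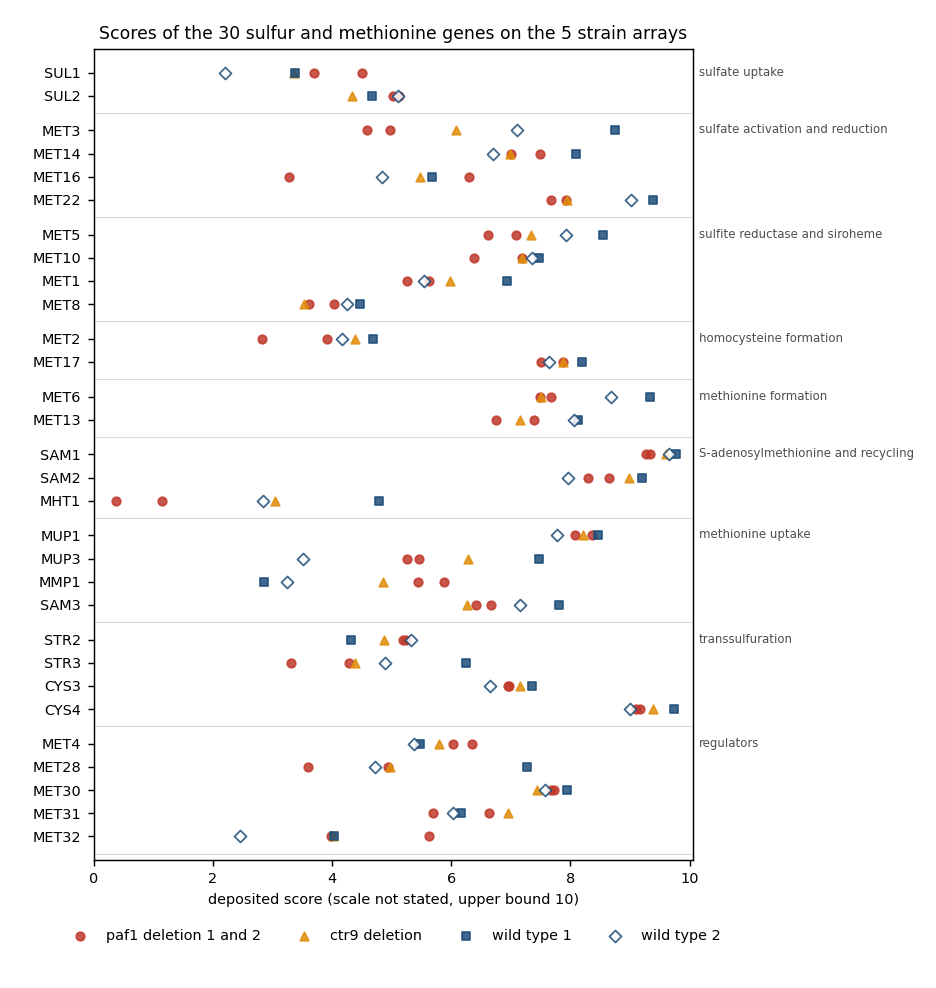
Deposited score (horizontal axis, scale not stated) of each of the 30 genes on the 5 strain arrays, genes grouped by role from top to bottom; circles are the 2 paf1 deletion arrays, triangles the ctr9 deletion array, and filled squares and open diamonds wild type 1 and wild type 2. MET3 scored 4.58 and 4.97 in the paf1 deletion, against 8.74 and 7.10 in wild type, while MUP3 spanned 3.51 to 7.47 between the wild type arrays alone.

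Sulfate uptake by the permeases Sul1 and Sul2 opens the pathway. SUL2 scored 5.13 and 5.02 in the paf1 deletion, 4.34 in the ctr9 deletion, and 4.67 and 5.10 in wild type. All 5 arrays lay close together for it, with differences from wild type of 0.19 (SE 0.55, limma adjusted p = 0.949) for paf1 and -0.54 (SE 0.67, limma adjusted p = 0.911) for ctr9. SUL1 scored 4.50 and 3.70 in the paf1 deletion, 3.37 in the ctr9 deletion, and 3.38 and 2.20 in wild type, which placed both paf1 deletion arrays above both wild type arrays and the ctr9 array within the wild type range. Its difference of 1.31 (SE 0.73, limma adjusted p = 0.449) in the paf1 deletion did not pass.

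Downstream of uptake, the 4 genes of sulfate activation and reduction were all lower in the paf1 deletion, with a median of -0.94, and 3 of 4 were lower in the ctr9 deletion, with a median of -0.83. MET3 scored 4.58 and 4.97 in the paf1 deletion, 6.08 in the ctr9 deletion, and 8.74 and 7.10 in wild type. The groups do not overlap, and the ctr9 array lay between the paf1 deletion and wild type, at a difference from wild type of -1.84 (SE 0.77, limma adjusted p = 0.48). The call on MET3 needed both wild type arrays. Without wild type 1 the paf1 deletion difference was -2.33 (limma adjusted p = 0.422) and without wild type 2 it was -3.96 (limma adjusted p = 0.282), fits in which 0 of all probe sets passed. The call was also lost without the filter on low scores (limma adjusted p = 0.0652), after quantile normalization (limma adjusted p = 0.0687) and without a variance trend (limma adjusted p = 0.0888). MET22, whose product removes the adenosine bisphosphate left over from sulfate reduction, scored 7.93 and 7.68 in the paf1 deletion, 7.95 in the ctr9 deletion, and 9.39 and 9.02 in wild type. All 3 deletion arrays sat more than 1 score unit below both wild type arrays, but the differences of -1.40 (SE 0.33, limma adjusted p = 0.0709) for paf1 and -1.25 (SE 0.40, limma adjusted p = 0.33) for ctr9 did not pass. MET14, the APS kinase gene, scored 7.49 and 7.01 in the paf1 deletion, 6.99 in the ctr9 deletion, and 8.09 and 6.70 in wild type, and its deletion arrays fell between the wild type arrays. MET16, the PAPS reductase gene, scored 3.27 and 6.29 in the paf1 deletion, 5.47 in the ctr9 deletion, and 5.68 and 4.84 in wild type. Its paf1 deletion replicates differed by more than any other pair of arrays did for this gene, and its difference of -0.48 (SE 0.87, limma adjusted p = 0.881) was smaller than its SE.

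Sulfite reductase, built of the products of MET5 and MET10, and the siroheme cofactor made with Met1 and Met8 follow. All 4 genes were lower in both deletions, with medians of -0.71 for paf1 and -0.55 for ctr9, and 0 passed. MET5 scored 7.08 and 6.61 in the paf1 deletion, 7.34 in the ctr9 deletion, and 8.54 and 7.92 in wild type, which left a gap between the deletions and wild type and differences of -1.39 (SE 0.46, limma adjusted p = 0.178) for paf1 and -0.89 (SE 0.56, limma adjusted p = 0.692) for ctr9. MET10 scored 7.18 and 6.39 in the paf1 deletion, 7.18 in the ctr9 deletion, and 7.47 and 7.36 in wild type. Here paf1 deletion 2 was low while paf1 deletion 1 and the ctr9 array scored the same, just under wild type 2. MET8 scored 4.03 and 3.62 in the paf1 deletion, 3.53 in the ctr9 deletion, and 4.47 and 4.25 in wild type, also without overlap, and its difference of -0.54 in the paf1 deletion was smaller than its SE of 0.61. MET1 scored 5.63 and 5.26 in the paf1 deletion, 5.98 in the ctr9 deletion, and 6.94 and 5.55 in wild type, where wild type 1 stood above the other 4 arrays.

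Homocysteine is formed through the acetyltransferase gene MET2 and the sulfhydrylase gene MET17. MET17 scored 7.51 and 7.88 in the paf1 deletion, 7.88 in the ctr9 deletion, and 8.19 and 7.64 in wild type, and its differences of -0.22 for paf1 and -0.03 for ctr9 were smaller than the gap between the wild type arrays. MET17, also named MET15, is deleted in some laboratory strains. Its transcript was measured far above the controls without a target in all 5 strain arrays, and its time course signal was 7911, 9000.5, 9360.3, 7363, 7702 and 8836 at 0, 2, 4, 5, 6 and 8 h. MET2 scored 2.82 and 3.92 in the paf1 deletion, 4.38 in the ctr9 deletion, and 4.68 and 4.17 in wild type, with both paf1 deletion arrays under wild type and the ctr9 array inside its range, and the paf1 difference of -1.05 (SE 0.66, limma adjusted p = 0.509) did not pass.

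In methionine formation both genes were lower on all 3 deletion arrays than on either wild type array, and 0 passed. MET6, the methionine synthase gene, scored 7.67 and 7.49 in the paf1 deletion, 7.51 in the ctr9 deletion, and 9.33 and 8.68 in wild type. The 3 deletion arrays lay close together and well apart from wild type, with differences of -1.43 (SE 0.38, limma adjusted p = 0.0984) for paf1 and -1.50 (SE 0.46, limma adjusted p = 0.303) for ctr9. MET13, the methylenetetrahydrofolate reductase gene that supplies the methyl group, scored 7.39 and 6.75 in the paf1 deletion, 7.15 in the ctr9 deletion, and 8.12 and 8.06 in wild type. Its wild type arrays were nearly equal and its differences were -1.02 (SE 0.45, limma adjusted p = 0.318) for paf1 and -0.94 (SE 0.55, limma adjusted p = 0.659) for ctr9.

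S-adenosylmethionine is made by the synthetases of SAM1 and SAM2, and Mht1 makes methionine by methylating homocysteine from S-methylmethionine. SAM1 scored 9.26 and 9.33 in the paf1 deletion, 9.61 in the ctr9 deletion, and 9.77 and 9.66 in wild type. These scores were near the upper bound of 10, and the difference of -0.42 (SE 0.19, limma adjusted p = 0.35) in the paf1 deletion did not pass although the groups do not overlap. SAM2 scored 8.65 and 8.30 in the paf1 deletion, 8.98 in the ctr9 deletion, and 9.20 and 7.96 in wild type, with all deletion arrays inside the wild type range. SAM1 and SAM2 are close paralogs, and how far each probe set also reads the other transcript was not tested. MHT1 scored 0.37 and 1.14 in the paf1 deletion, 3.05 in the ctr9 deletion, and 4.78 and 2.85 in wild type. Its mean over the 5 arrays lay under the limit of 2.84 set for testing, both paf1 deletion scores lay in the range of the controls without a target, and a fit without that limit gave -3.06 in the paf1 deletion (limma adjusted p = 0.148).

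Uptake of methionine and related compounds went in more than one direction. MMP1, the gene of the S-methylmethionine permease, scored 5.45 and 5.88 in the paf1 deletion, 4.85 in the ctr9 deletion, and 2.86 and 3.24 in wild type. It had the largest positive difference of the 29 genes in both deletions, 2.62 (SE 0.58, limma adjusted p = 0.0546) for paf1 and 1.80 (SE 0.71, limma adjusted p = 0.444) for ctr9, neither of which passed. In the RefSeq annotation of assembly R64 MMP1 and MHT1 are neighbours, so the genes for taking up S-methylmethionine and for using it lie side by side while their paf1 deletion scores lay on opposite sides of wild type. MUP1, the high-affinity methionine permease gene, scored 8.36 and 8.07 in the paf1 deletion, 8.21 in the ctr9 deletion, and 8.47 and 7.78 in wild type, and its deletion arrays lay inside the wild type range. The low-affinity permease gene MUP3 scored 5.25 and 5.46 in the paf1 deletion, 6.28 in the ctr9 deletion, and 7.47 and 3.51 in wild type, so that its wild type arrays stood 3.96 apart and enclosed all 3 deletion arrays. SAM3, the S-adenosylmethionine permease gene, scored 6.67 and 6.41 in the paf1 deletion, 6.26 in the ctr9 deletion, and 7.80 and 7.15 in wild type, without overlap, with differences of -0.94 (SE 0.50, limma adjusted p = 0.432) for paf1 and -1.22 (SE 0.62, limma adjusted p = 0.583) for ctr9. The other 3 tested probe sets of SAM3 also had lower mean scores in the paf1 deletion, with differences of -1.19, -0.82 and -0.68. The groups did not overlap on the one at -1.19. On the one at -0.82, paf1 deletion 1 (6.14) and the ctr9 array (6.26) lay above wild type 2 (6.08). On the one at -0.68 the ctr9 array (7.43) lay above wild type 2 (7.24). The last of the 5 SAM3 probe sets had too low a mean to be tested. Its mean was 2.67 in the paf1 deletion and 1.29 in wild type.

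Transsulfuration links homocysteine and cysteine. The genes of the cysteine-forming direction were nearly level. CYS3, the cystathionine gamma-lyase gene, scored 6.97 and 6.96 in the paf1 deletion, 7.16 in the ctr9 deletion, and 7.35 and 6.65 in wild type. CYS4, the cystathionine beta-synthase gene, scored 9.16 and 9.10 in the paf1 deletion, 9.38 in the ctr9 deletion, and 9.37 ± 0.52 in wild type (SD, n = 2). In both the deletion arrays lay inside the wild type range. STR3, the cystathionine beta-lyase gene of the methionine-forming direction, scored 3.32 and 4.29 in the paf1 deletion, 4.38 in the ctr9 deletion, and 6.24 and 4.89 in wild type, without overlap, at -1.76 (SE 0.66, limma adjusted p = 0.245) for paf1 and -1.19 (SE 0.81, limma adjusted p = 0.725) for ctr9. STR2, which makes the cystathionine that Str3 cleaves, scored 5.19 and 5.24 in the paf1 deletion, 4.88 in the ctr9 deletion, and 4.31 and 5.32 in wild type, with all 3 deletion arrays inside the wild type range.

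**Figure D2:**
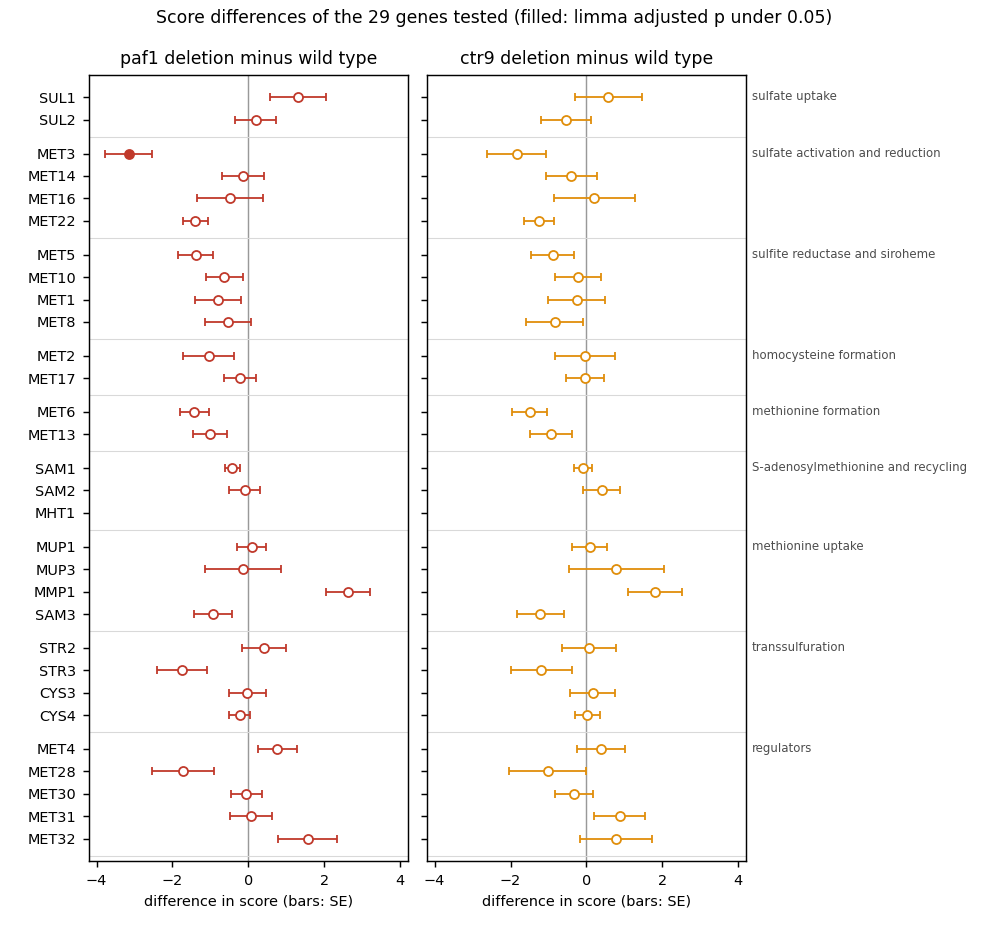
Score difference from wild type (horizontal axis, score units) of the paf1 deletion (left) and the ctr9 deletion (right) for the 29 genes tested, grouped by role; points are limma estimates, bars their SE, and the filled point marks an adjusted p under 0.05. MET3 in the paf1 deletion, at -3.15, is the filled point, and MMP1 has the largest positive value in both panels, 2.62 and 1.80.

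The regulators did not share a direction. MET4, the activator, scored 6.34 and 6.03 in the paf1 deletion, 5.80 in the ctr9 deletion, and 5.47 and 5.38 in wild type, above both wild type arrays on every deletion array, with differences of 0.76 (SE 0.52, limma adjusted p = 0.556) for paf1 and 0.38 (SE 0.64, limma adjusted p = 0.947) for ctr9 that did not pass. MET28, which stabilises Met4 on DNA, scored 3.60 and 4.94 in the paf1 deletion, 4.97 in the ctr9 deletion, and 7.27 and 4.72 in wild type. Its difference in the paf1 deletion, -1.73 (SE 0.82, limma adjusted p = 0.368), was smaller than the gap of 2.55 between the wild type arrays. MET32 scored 5.62 and 3.99 in the paf1 deletion, 4.01 in the ctr9 deletion, and 4.04 and 2.45 in wild type, at 1.56 (SE 0.78, limma adjusted p = 0.394) for paf1. MET31, which encodes a close relative of Met32, scored 5.69 and 6.64 in the paf1 deletion, 6.96 in the ctr9 deletion, and 6.16 and 6.03 in wild type, at 0.07 (SE 0.55, limma adjusted p = 0.983) for paf1. For both the paf1 deletion replicates lay well apart. MET30 scored 7.67 and 7.73 in the paf1 deletion, 7.44 in the ctr9 deletion, and 7.94 and 7.57 in wild type, the narrowest spread among the regulators. CBF1, the partner of Met4 that is not among the 30, scored 3.04 and 2.68 in the paf1 deletion, 3.74 in the ctr9 deletion, and 3.38 and 2.22 in wild type. It differed by 0.06 in the paf1 deletion (SE 0.76, limma adjusted p = 0.99).

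The wild type arrays differed from each other on these genes. Wild type 1 scored above wild type 2 for 26 of 29, 89.7% against 64% of all probe sets, and the median gap was 0.65, against 0.28 for all. Among the 29 the gap was widest for MUP3, MET28, MET3 and MET32, at 3.96, 2.55, 1.64 and 1.59. Set against wild type 2 alone, the paf1 deletion had a median difference of -0.06 with 16 of 29 lower, where 45.7% of all probe sets were lower and their median was 0.08. Against wild type 1 alone it had a median of -0.68 with 22 of 29 lower, where 61.2% of all were lower and their median was -0.25. For the ctr9 deletion the median over the 29 genes was 0.24 without wild type 1, with 0.20 for all probe sets, and -0.33 without wild type 2, with -0.13 for all. The size of the medians, and for ctr9 the sign, therefore depended on which wild type array was used, and what set these arrays apart was not tested.

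In the time course 29 of the 30 genes had enough signal to be tested, and 0 had a slope that passed in limma, as did 0% of all 6492 probe sets. At an unadjusted p under 0.05 there was 1, MMP1, against 8.63% of all probe sets. The slopes ran from -0.09 to 0.12 log2 units per hour. The signals of many of these genes did not run in a straight line, with a high point at 2 or 4 h, a low point at 5 h and higher values again at 6 or 8 h. With 1 array per time this course has no test and is given as signals and as folds over 0 h.

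Of the 29, 15 had their highest signal at 4 h, against 24.3% of all probe sets, 7 at 2 h, against 11.9%, and 0 at 5 h, against 13.9%. At 5 h 17 of 29 had their lowest signal, 58.6% against 23.2% of all probe sets, while 6 were lowest at 0 h, against 25.9% of all. Taking only the neighbouring times, 24 of 29 were lower at 5 h than at both 4 h and 6 h, 82.8% against 47.4%. Over 2, 4, 5, 6 and 8 h the median log2 difference from 0 h was 0.36, 0.38, -0.13, 0.19 and 0.19, while the median of all probe sets stayed between -0.01 and 0.09. Since the 4 h array had the low actin ratio, the low point was also counted without it. It was then at 5 h for 17 of 29, where 26.2% of all probe sets had theirs. A gene lowest at 5 h stays lowest there when another array is left out. The count could therefore not fall, and it does not show how far the low point depends on the 4 h array. The 4 h and 6 h arrays on either side were those with the high spike-in readings, 4.34-fold and 3.93-fold, and the part of this in the low point was not tested. The high points at 4 h rest on the array with the low actin ratio and a high spike-in reading, whose part in them was not tested either.

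**Figure D3:**
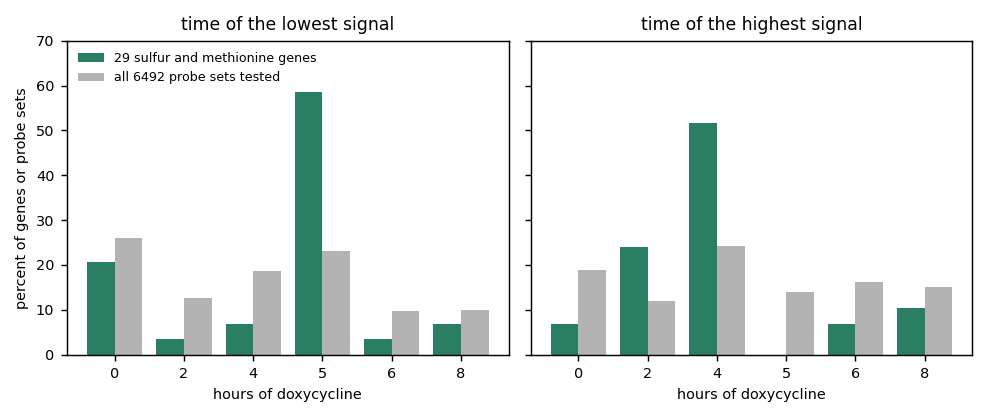
Percent (vertical axis) of the 29 tested genes and of all 6492 tested probe sets that had their lowest (left) or highest (right) signal at each time of doxycycline, 1 array per time. The low points of the genes gathered at 5 h, 58.6% against 23.2%, and their high points at 4 h, 51.7% against 24.3%. The 4 h array was the one with the low actin ratio.

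Few of the genes were as far as 2-fold from their 0 h signal, a fold counted with signals under 5.6 set to 5.6. At 2 h only MUP3 was at least 2-fold higher (4.04% of all probe sets were) and 0 of 29 were at least 2-fold lower (4.08% of all). At 4 h SUL2, MUP3, STR3, MET28 and MET32 were at least 2-fold higher, 17.2% of the genes against 6.21% of all probe sets, and MET13 and SAM3 at least 2-fold lower, 6.90% against 8.07%. SAM3 was counted on its chosen probe set, and its other tested probe sets stood at 0.09, 1.09 and 1.65 of their 0 h signals at 4 h. The 4 h counts in both directions rest on the array with the low actin ratio. At 5 h 0 were higher (3.85% of all), and MET5, MET8, MET16 and MHT1 were at least 2-fold lower, 13.8% against 4.45%. At 6 h and at 8 h 0 of 29 were past 2-fold in either direction, where 6.75% and 6.33% of all probe sets were higher and 3.22% and 3.85% lower. By this measure the late times held the fewest of these genes away from their 0 h signal.

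Each of the 8 genes of sulfate activation and of sulfite reductase was at its lowest at 5 h. MET3 gave signals of 539.5, 690.3, 909, 279.6, 454 and 512 at 0, 2, 4, 5, 6 and 8 h, so the 5 h signal was 0.31 of that at 4 h. MET14 gave 959.7, 1085, 1798, 656, 1334 and 1371 over the same times and MET16 gave 195, 143, 314, 76.8, 204 and 222 over the same times. In these the 6 h array had at least 1.62-fold the 5 h signal. MET22 gave 819.6, 727, 1319.8, 566, 701 and 659.9 over the same times, with its highest signal at 4 h and its lowest at 5 h as well. MET5 gave 1504, 1445, 1972, 716, 1376 and 1264 over the same times, which is 0.48 of the 0 h signal at 5 h and 0.92 of it at 6 h. MET10 gave 426, 584, 563, 303, 359.8 and 378 over the same times and MET1 gave 453, 585, 891, 389, 491 and 726 over the same times, both lowest at 5 h. MET8 gave 168, 89.3, 103, 68.4, 87.6 and 98.5 over the same times. Unlike the other sulfite reductase genes it was lower than 0 h at every later time, and its slope of -0.09 log2 units per hour (SE 0.06, limma adjusted p = 0.665) was the lowest of the 29.

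Uptake of sulfate, read from SUL2, gave 120.5, 182, 253, 113, 204 and 194 at 0, 2, 4, 5, 6 and 8 h, with the same high point at 4 h and low point at 5 h. SUL1, which had a mean signal under the limit of 37.4 for testing, gave 41.6, 29.8, 51.5, 25.7, 21.4 and 43.6 over the same times, and its lowest value came at 6 h. MET2 gave 143, 247, 231, 127, 182 and 182 over the same times, again lowest at 5 h. MET17, CYS3 and CYS4 varied least of the set, with highest over lowest signals of 1.27 for MET17 and 1.26 each for CYS3 and CYS4. CYS3 gave 7319, 6611, 7607, 7015, 7103 and 8328 over the same times, and CYS4 gave 3314, 3372, 3284, 3079, 3144 and 2685 over the same times.

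**Figure D4:**
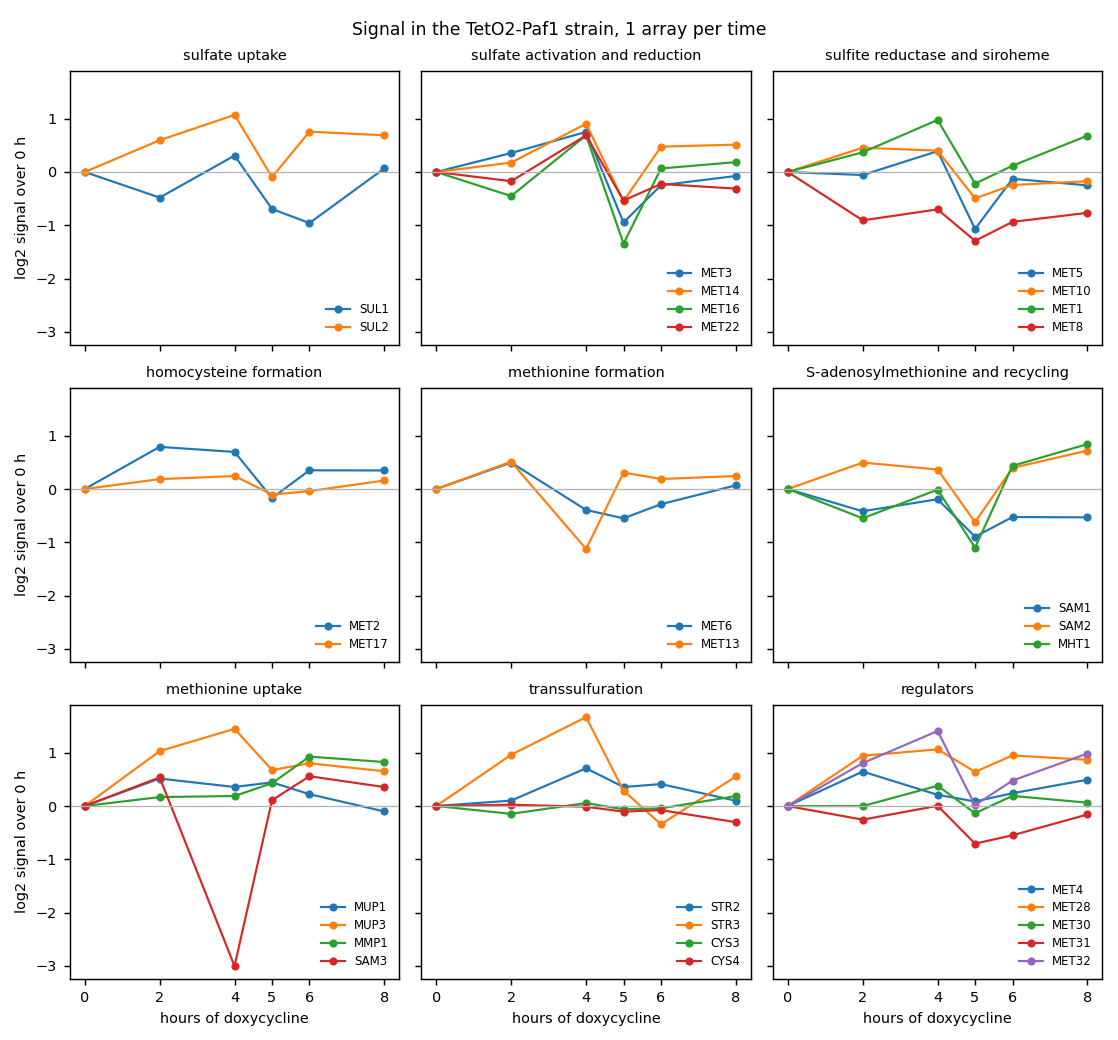
Log2 of the signal over the 0 h signal (vertical axis) against hours of doxycycline (horizontal axis) for the 30 genes in 9 panels by role, 1 array per time and 1 line per gene. MET3, MET14, MET16 and MET22 peak at 4 h and are lowest at 5 h, and the SAM3 probe set drawn drops to 0.12 of its 0 h signal on the 4 h array alone. That array was the one with the low actin ratio, and the SAM3 probe sets disagreed on it.

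Methionine and S-adenosylmethionine genes shared the 5 h low point in part. SAM1 gave 1919, 1437, 1680.0, 1031, 1333 and 1327 at 0, 2, 4, 5, 6 and 8 h, and SAM2 gave 1177, 1659, 1517, 765, 1548 and 1941 over the same times, so SAM2 at 8 h was 1.65-fold its 0 h signal while SAM1 stayed at 0.69 of it. Both were lowest at 5 h. MET6 gave 1636, 2307, 1245, 1118, 1343 and 1716 over the same times, high at 2 h and lowest at 5 h. MHT1 gave 36.9, 25.2, 36.6, 17.2, 49.9 and 66.2 over the same times, the lowest at 5 h and 1.79-fold the 0 h signal at 8 h.

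MET13 and SAM3 were the 2 genes with their lowest signal at 4 h. MET13 gave 249, 355, 114, 308, 283 and 294 at 0, 2, 4, 5, 6 and 8 h, and the SAM3 probe set gave 975, 1415, 122, 1052, 1437 and 1248 over the same times. Another SAM3 probe set gave 13.9 at 4 h, against 163 to 350.0 at the other times, but the 2 other SAM3 probe sets with signal gave 716 and 601 at 4 h, where the other times spanned 620.5 to 898 and 365 to 578. The probe sets of 1 gene therefore disagreed on that array, the one on which the actin 5' over 3' ratio was 5.92%. Whether the low values at 4 h come from the state of that sample was not tested.

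Of the 4 permease genes in this role only MUP3 was lower at 5 h than at 4 h on the probe set chosen for each gene. SAM3 was 8.66-fold higher at 5 h on its chosen probe set, which had the low 4 h signal. The tested SAM3 probe sets without a low 4 h signal were instead lower at 5 h, at 0.87 and 0.63 of their 4 h signals. MUP3 gave 83.1, 169.8, 227, 133, 145 and 131 at 0, 2, 4, 5, 6 and 8 h, the largest fold of the 29 at 2 h, 2.04. MUP1 gave 1492, 2132, 1910.0, 2029, 1739.7 and 1389.9 over the same times, above 0 h at 2, 4, 5 and 6 h. MMP1 gave 61.7, 69.3, 70.3, 83.0, 117 and 109 over the same times, with its higher signals at 6 and 8 h. Its slope, 0.12 log2 units per hour (SE 0.04, limma adjusted p = 0.557), was the highest of the 29 and did not pass. The deletion arrays of MMP1 lay above wild type and its late signals above 0 h, in sets that share no arrays, and it passed in neither.

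STR3 gave 138, 269.6, 439.7, 169, 109 and 203 at 0, 2, 4, 5, 6 and 8 h, a 3.18-fold signal at 4 h, and it was lowest at 6 h. STR2 gave 156, 168, 255, 200.1, 208 and 167 over the same times, at most 1.63-fold the 0 h signal. Among the regulators MET28 gave 63.5, 122, 133, 99.1, 123 and 116 over the same times and MET32 gave 43.0, 75.2, 114, 43.5, 59.9 and 85.1 over the same times. Both were lowest at 0 h. MET4 gave 201, 315, 232, 213, 237 and 283 over the same times, also lowest at 0 h and highest at 2 h, and MET31 gave 253, 212, 253, 155, 173 and 226 over the same times, lowest at 5 h. MET30 gave 257, 257, 335, 234, 293 and 268 over the same times, within 1.43-fold over the whole course.

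The genes with an unadjusted p under 0.05 and a lower score in the paf1 deletion lay on both sides of their 0 h signal at the end of the time course. At 8 h the signal over 0 h was 0.95 for MET3, 0.81 for MET22, 1.05 for MET6, 0.84 for MET5, 1.18 for MET13 and 1.47 for STR3. MET3 was under 0 h at 5, 6 and 8 h, at 0.52, 0.84 and 0.95. Its slope was -0.06 log2 units per hour (SE 0.08, limma adjusted p = 0.833).

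A list of 34 other genes of sulfur metabolism was set beside these, among them genes of glutathione synthesis, methionine salvage, homoserine synthesis, the Met30 ubiquitin ligase and other transporters. In limma 0 of the 30 tested in the strain set passed in any comparison. For the paf1 and the ctr9 deletion 1 each had an unadjusted p under 0.05, against 14.8% and 9.64% of all probe sets. In the time course 0 of 31 passed and 3 had an unadjusted p under 0.05, against 0% and 8.63% of all probe sets. At 5 h 9 of the 31 had their lowest signal, against 17 of the 29 genes and 23.2% of all probe sets. Lower at 5 h than at both 4 h and 6 h were 18 of the 31, against 24 of the 29 and 47.4% of all. SAH1, the S-adenosylhomocysteine hydrolase gene, gave 4065, 3678, 2817, 3520, 3031 and 3482 at 0, 2, 4, 5, 6 and 8 h, so its low point came at 4 h. The list and the 30 genes were both chosen by name, and the difference between them was not tested.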

How the data were processed

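RNA was measured on Affymetrix yeast arrays, 1 array per sample, from biotin-labelled cRNA, per the labels' protocols. The deposited intensity values of the time course are linear signals with similar medians, and no source used here says how the authors scaled them. The deposited score values of the strain arrays are bounded at -10 and 10, and how the authors made them is not given in the sources used here, nor are software, background step or genome build. Both were used as deposited, scores untransformed and signals as log2 after a floor of 5.6, the 10th percentile. Of 9335 probe sets 60 controls were left out, 6504 were annotated to 1 gene, 328 to several and 2443 to none. Those whose mean fell in the lowest part of the table, up to the 30th percentile, were not tested, which left 6493 for scores (mean from 2.84) and 6492 for signals (mean from 37.4).

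Strains were compared with limma 3.58.1 in R 4.3.3 over all 5 arrays (2 residual degrees of freedom) and time as a linear term over 6 arrays (4), with a variance trend and Benjamini-Hochberg adjustment over all probe sets at 0.05. The scripts were tested on simulated data. The planted changes were larger than any difference or slope of these genes, so that test does not show whether changes of the size found here are detected. The labels do not say whether the replicate numbers pair the arrays of the paf1 deletion and wild type, and no pairing was used in the reported fit. The deviations of same-numbered arrays correlated at 0.00804 across probe sets, which cannot show whether the arrays were paired. Values in every array were due for genes past the threshold, for the 3 highest and 3 lowest in each comparison and for the gene of highest mean signal in each role, and are given for all 30, with the wild type scores of CYS4 as mean and SD. The genes and lists were chosen with earlier results of these data known. A planned motif search in promoters was not run. Alternatives changed the filter, normalization, floor, variance trend, probe set choice and the arrays included.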

Additional observations from a re-analysis of the deposited data

How the results depend on the processing

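The number of genes past the threshold in the paf1 deletion, 1 in the reported fit, was 0 without the filter on low scores, 0 after quantile normalization, 0 without the variance trend and 3 with arrays centred on their median (MET3, MMP1 and MET22). Leaving out 1 array gave 0 without wild type 1 or wild type 2 and 2 without paf1 deletion 1 (MET3 and MMP1). With wild type and paf1 deletion arrays alone and a replicate block it was 4 (MET3, MMP1, MET22 and MET6), although the labels do not say that the replicate numbers pair the arrays. Over all probe sets the count in that comparison was 111 in the reported fit, 41 without the filter, 56 with a filter at the 50th percentile, 42 after quantile normalization, 237 after centring, 39 without the trend, 0 without either wild type array, 189 and 190 without paf1 deletion 1 and 2, and 198 with the replicate block. The cause was not tested. The MET3 difference stayed negative in all 11 alternatives, with a limma adjusted p between 0.00242 and 0.422. No gene of the 29 passed for the ctr9 deletion, for the paf1 against the ctr9 deletion or for the time course slope under any alternative run. The number at least 2-fold higher at 4 h, 5 as reported, was 2 with a pseudocount of 50 and 3 with a filter at the 50th percentile, and the number at least 2-fold lower at 5 h, 4 as reported, was 1 and 2 in the same settings. Fewer genes enter under that filter. With 1 ctr9 deletion array and 1 array per time, the spread of those groups is taken from the other strain arrays or from the line. SAM3's dimmest probe set fell under both filters and gave no value.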
